A study of Coryphaena hippurus with 32 samples.

Results

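The 7 genes described here code for digestive enzymes that the exocrine pancreas makes: PRSS1, PRSS2, CTRB1, CELA1, CPA1, CPB1 and AMY2A. They were chosen by name from 10998 features with a count in the series, with earlier results of these data known. Where a gene had more than 1 line in the count table, the line of highest total count was kept. Measured counts thus chose the line that stands for such a gene. Messenger RNA was measured by sequencing in mahi-mahi (Coryphaena hippurus), a fast-growing open-ocean fish, at 24, 48 and 96 h post fertilization (hpf). Embryos of natural tank spawns went into beakers of oiled or clean seawater shortly after fertilization, the water was not renewed, and each sample pooled 30 whole animals. The groups were slick oil, source oil (also called mass oil) and control at each stage. Slick is oil that was collected at the sea surface after the Deepwater Horizon spill, and source oil was taken from the well. Both were given as a high-energy water accommodated fraction (HEWAF), a mixture of seawater and dispersed oil, labelled 1 g/l, and the controls were labelled 0 g/l. Measured hydrocarbon levels were not used here, so type and effective dose of oil cannot be told apart between slick and source.

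Of 32 deposited samples, 5 pairs of control samples agreed within sampling noise, and each pair was summed and counted as 1. The resulting 27 libraries gave every one of the 9 groups n = 3. Counting 1 table line per gene, totals ran from 1823727 to 2560303 per deposited sample, and up to 4470040 in a summed pair. Normalised counts below are scaled to a common library size with factors estimated over all 27 libraries. The tests of the oils used factors estimated within 1 stage. Library ranges and group means can thus differ slightly from the tested log2 changes, and narrow overlaps or gaps depend on the scaling. In slick against control at 96 hpf the median log2 change of all features was 0.007 in the test and -0.032 with all stages in 1 fit. The value after ± is the SD of 3 libraries, or the standard error (SE) where it follows a log2 change. A gene was called where edgeR's quasi-likelihood test gave an adjusted p (Benjamini-Hochberg, over all features tested) below 0.05. The labels tell of replicate beakers but not of separate spawns, and the p-values can only speak for the spread among the samples at hand. In whole animals, fewer acinar cells and less transcript per cell cannot be told apart.

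Acinar cells of the exocrine pancreas store digestive enzymes in granules and release them into the gut when food arrives. The proteases and carboxypeptidases are made as inactive zymogens: enteropeptidase of the intestine activates trypsinogen, and trypsin then activates the others. Amylase is made in active form. Fish larvae switch this programme on while they still live on yolk, and rely on it once they begin to feed, before a working stomach has formed.

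The count table is keyed to human gene identifiers, so each name stands for the best-matching human gene and may cover more than 1 mahi-mahi gene. PRSS1 and PRSS2, the cationic and anionic trypsinogens of humans, had 3 and 2 table lines, and both lines of PRSS2 were identical in every sample with the lower-count lines of PRSS1. The PRSS1 line kept was not shared with PRSS2 and held 120082 counts over all samples, against 25009 for the kept PRSS2 line, which is one of the shared ones. CTRB1, a chymotrypsinogen, had 1 line of 126416 counts that CTRB2 shares exactly. AMY2A, pancreatic amylase, had 3 lines, and its kept line (87151 counts) was also listed under 1 identifier without a symbol. CPA1 and CPB1, which trim amino acids from the carboxyl end of peptides, had 4 and 2 lines. CELA1, a chymotrypsin-like elastase, had 2 lines of 7072 and 436 counts. The name CELA1 is that of an elastase hardly transcribed in the adult human pancreas, and the match says nothing of the tissue in fish. Transcript lengths of mahi-mahi were not used here, so levels are compared between groups for 1 gene at a time, never between genes.

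In control animals all 7 genes rose steeply between 48 and 96 hpf. PRSS1 averaged 7.85 ± 5.23, 19.9 ± 1.02 and 11525 ± 469 normalised counts at 24, 48 and 96 hpf. PRSS2 averaged 0.459 ± 0.796, 1.88 ± 1.10 and 2428 ± 142. CTRB1 averaged 2.99 ± 4.05, 8.56 ± 2.55 and 12216 ± 731. PRSS2 and CTRB1 were near the limit of detection at 24 hpf, whereas PRSS1 had 31 or 32 reads in every control library at 48 hpf. CELA1 had no count in any of the 9 libraries at 24 hpf, including the 5704389 counts of the controls together (3 counts would be 5.26e-05%), and a single count in the controls at 48 hpf, against 662.1 ± 54.8 normalised counts at 96 hpf. CPA1 was likewise without a count in controls at 24 hpf, and averaged 11.4 ± 2.05 at 48 hpf and 1306 ± 128 at 96 hpf. CPB1 averaged 2.62 ± 1.24, 6.88 ± 1.13 and 1869 ± 92.3 normalised counts at the 3 stages. AMY2A averaged 150.0 ± 6.16 at 24 hpf, 164.3 ± 4.56 at 48 hpf and 9010 ± 873 at 96 hpf.

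The step from 48 to 96 hpf was called for 7 of 7 genes, where 34.9% of all 8898 features tested were called higher (edgeR, all 27 libraries in 1 fit). PRSS1, CPA1 and AMY2A passed the count filter at 48 hpf as well. PRSS2, CTRB1, CPB1 and CELA1 did not, and entered this fit only through their 96 hpf counts. For them a rise was thus built into being tested, and their calls and ranks only describe its size. The smallest log2 change of the 7 was 5.77 ± 0.071 (SE) for AMY2A, and the largest was 10.95 ± 0.22 for CELA1. By size of the log2 change they stood at ranks 4 (CELA1), 6 (CTRB1), 8 (PRSS2), 14 (PRSS1), 25 (CPB1), 41 (CPA1) and 57 (AMY2A) of 8898. The median of the 7 was 9.17, against 0.05 over all features. Over all features 3107 were called higher and 2439 lower, and with total-count scaling 4426 higher and 1374 lower, with the median at 0.307. The 7 genes were called in that fit too. On summed counts the rise in controls was 53.6-fold for AMY2A, 111-fold for CPA1, 269-fold for CPB1, 577-fold for PRSS1, 1279-fold for PRSS2 and 1408-fold for CTRB1. CELA1 rose 3139-fold on 1 count at 48 hpf, with a 95% counting interval of 563 to 124031. Intervals and limits of this kind cover counting error only.

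The exposed animals made the same step. In slick animals the 96 over 48 hpf ratio of summed counts ran from 53.0-fold for AMY2A over 127-fold for CPA1, 474-fold for PRSS1, 533-fold for CPB1 and 1237-fold for CTRB1. In source animals it was 59.0-fold for AMY2A, 124-fold for CPA1, 671-fold for PRSS1, 1047-fold for CPB1, 1657-fold for PRSS2 and 2182-fold for CTRB1. PRSS2 in slick (3546-fold, 981 to 29282), CELA1 in slick (987-fold, 273 to 8153) and CELA1 in source (2000-fold, 359 to 79039) rest on 1 or 2 counts at 48 hpf, and their counting intervals are wide.

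Between 24 and 48 hpf the genes did not move together. Of the 7 genes, 4 were called higher in controls at 48 than at 24 hpf, where 25% of all features were (2225 higher and 2034 lower, and 1673 higher and 2677 lower with total-count scaling, which moved the median of all features to -0.117). PRSS1 and AMY2A passed the count filter at 24 hpf. CPA1 passed it at 48 but not at 24 hpf, and PRSS2, CTRB1, CPB1 and CELA1 at neither stage. All but PRSS1 and AMY2A were in this fit through later, higher counts, so the 4 calls cannot be weighed against the 25%. PRSS1, with 21.0, 19.2 and 19.4 normalised counts at 48 hpf against 2.76, 13.2 and 7.60 at 24 hpf, had a log2 change of 1.31 ± 0.33 (SE, adjusted p = 0.00046), and its groups did not overlap. CPA1, at 0 counts at 24 hpf and 55 counts in all at 48 hpf, was at least 8.70-fold higher (3 counts set as the floor of the 24 hpf group, adjusted p = 1.1e-07). CTRB1 (1.44 ± 0.52, adjusted p = 0.017) and CPB1 (1.34 ± 0.56, adjusted p = 0.041) were called on few reads. Without control replicate 1 or 2 at 24 hpf, or the summed library of replicates 6 and 7 at 48 hpf, CTRB1 had adjusted p = 0.11, 0.2 and 0.059 and CPB1 0.087, 0.19 and 0.055. CPB1 also lost its call without the summed library of replicates 8 and 9 (adjusted p = 0.1). AMY2A changed by 0.13 on the log2 scale (95% interval -0.08 to 0.35, adjusted p = 0.33), although its 48 hpf libraries all lay above those at 24 hpf. PRSS2 had 9 counts in all at 48 hpf and 1 at 24 hpf, and CELA1 1 and 0, so that neither could be placed at this depth.

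**Figure D1:**
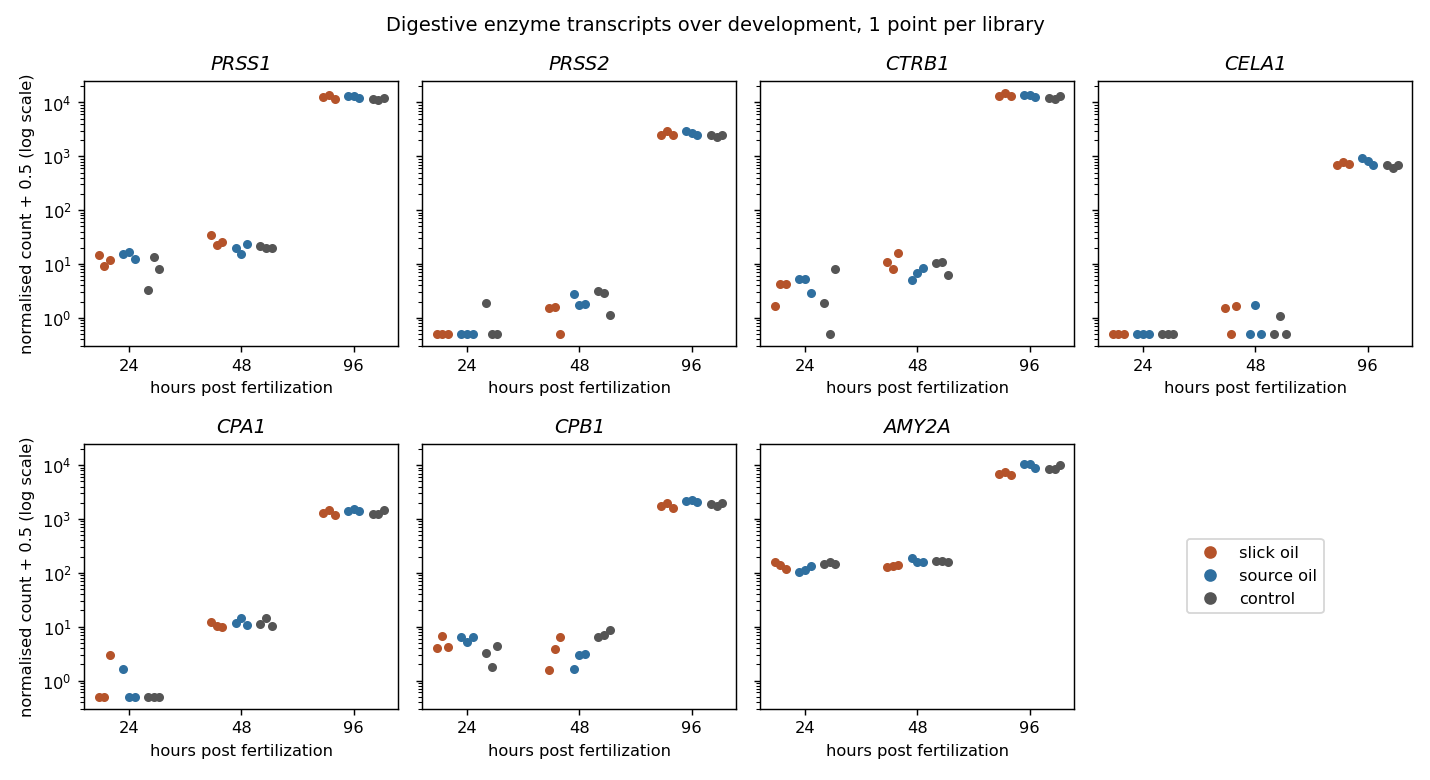
Normalised count plus 0.5 on a log scale (y) against hours post fertilization (x) for each of the 7 digestive enzyme genes, 1 point per library, slick left, source middle and control right at each stage. All 7 genes lie far higher at 96 than at 48 hpf in every group, and the AMY2A libraries lie at 103 to 157 normalised counts at 24 hpf.

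At 96 hpf AMY2A was called lower and CTRB1 higher in slick larvae in every fit run. PRSS1, PRSS2 and CELA1 were called higher too, but not in every fit. Of the 7 genes, 4 were called higher in slick than in control larvae (10.9% of 8511 features were) and 1 lower (10.4%). The median log2 change of the 7 was 0.16, against 0.01 over all features. The called changes were small, between 0.805-fold and 1.16-fold.

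Among the trypsinogens, PRSS1 had 12814, 13974 and 11670 normalised counts in slick larvae, against 11703, 10993 and 11878 in controls. Its log2 change was 0.19 ± 0.050 (SE, 1.14-fold, adjusted p = 0.0018), although the lowest slick library lay below 2 of the 3 controls. PRSS2 had 2530, 2900 and 2456 in slick larvae, against 2473, 2268 and 2542 in controls (log2 change 0.16 ± 0.054, 1.11-fold, adjusted p = 0.027), and its groups overlapped too. On counts scaled over all libraries, CTRB1 was the 1 protease whose groups did not overlap. It had 13287, 14948 and 13041 normalised counts in slick larvae, against 11985, 11628 and 13034 in controls, so that the lowest slick library stood just above the highest control. Its log2 change was 0.21 ± 0.050 (1.16-fold, adjusted p = 0.00057). CELA1 had 681.0, 777.5 and 733.3 in slick larvae, against 695.3, 598.8 and 692.1 in controls (log2 change 0.19 ± 0.066, 1.14-fold, adjusted p = 0.028), with 1 slick library below 2 controls.

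Neither carboxypeptidase passed the test in slick larvae. CPA1, which prefers aromatic and branched residues, had 1286, 1483 and 1176 normalised counts in slick larvae, against 1243, 1221 and 1452 in controls (log2 change 0.06, 95% interval -0.06 to 0.18, adjusted p = 0.55). CPB1, which removes lysine and arginine, had 1732, 2017 and 1592 in slick larvae, against 1890, 1769 and 1950 in controls (log2 change -0.03, 95% interval -0.14 to 0.08, adjusted p = 0.77). For both genes the lowest slick library lay below every control and the highest above every control.

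AMY2A was the member that fell. It had 6956, 7583 and 6626 normalised counts in slick larvae, against 8508, 8506 and 10018 in controls, and every slick library lay below every control. Its log2 change was -0.31 ± 0.053 (SE, 0.805-fold, adjusted p = 6.6e-07).

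Single libraries carried some of these calls and not others. The slick library of replicate 8 was the highest of its group for 7 of 7 genes, and the summed control library of replicates 12 and 13 the lowest of its group for 7 of 7. Without slick replicate 8 the calls of PRSS1 (adjusted p = 0.085), PRSS2 (0.41) and CELA1 (0.19) were lost, and AMY2A and CTRB1 made up the 2 calls. Without the summed control library of replicates 12 and 13, PRSS2 (adjusted p = 0.27) and CELA1 (0.36) were lost. CELA1 was also lost without slick replicate 9 (adjusted p = 0.052). AMY2A (adjusted p up to 0.028) and CTRB1 (up to 0.035) were called in all 6 fits that left out 1 library and in all 8 other alternative fits.

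**Figure D2:**
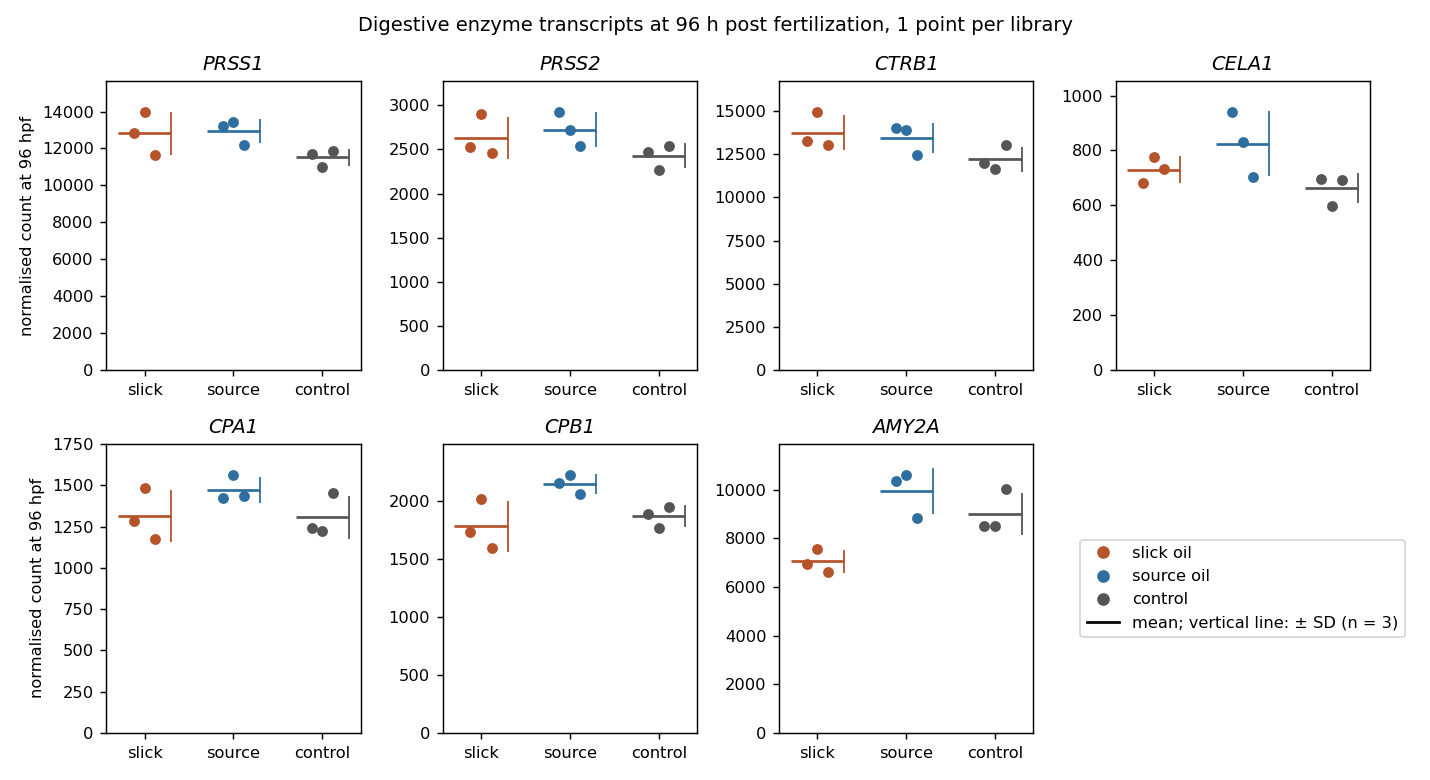
Normalised counts at 96 hpf (y, from 0) of each gene in the slick, source and control libraries (x), 1 point per library, with the group mean as a horizontal line and ± SD as a vertical line (n = 3). The 3 slick libraries of AMY2A (6626 to 7583) lie below all 6 others. For the serine proteases the slick and source means lie somewhat above the control means, and single libraries overlap in part.

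Source oil at 96 hpf gave values above control in all 7 genes, of which 2 passed the test. Here 0.517% of 8511 features were called higher. CELA1 had 940.0, 831.0 and 703.6 normalised counts in source larvae, against 695.3, 598.8 and 692.1 in controls, without overlap (log2 change 0.33 ± 0.065, 1.26-fold, adjusted p = 0.00051). CPB1 had 2157, 2227 and 2059 in source larvae, against 1890, 1769 and 1950 in controls, also without overlap (log2 change 0.21 ± 0.055, 1.16-fold, adjusted p = 0.023). The other 5 genes had log2 changes between 0.15 and 0.19 with adjusted p from 0.053 to 0.18.

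PRSS1 had 13213, 13414 and 12199 normalised counts in source larvae, all above the 3 controls (log2 change 0.18, adjusted p = 0.053). PRSS2 had 2924, 2718 and 2534 in source larvae (0.18, adjusted p = 0.094) and CTRB1 14022, 13880 and 12441 (0.15, adjusted p = 0.17), each with 1 library below the highest control. CPA1 had 1423, 1565 and 1435 (0.19, adjusted p = 0.088) and AMY2A 10358, 10622 and 8855 (0.15, adjusted p = 0.18), again overlapping the controls. The median log2 change of the 7 was 0.18 in source larvae, against -0.0013 over all features.

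The source calls depended on single libraries. CPB1 lost its call without the summed control library of replicates 10 and 11 (adjusted p = 0.079), that of 12 and 13 (0.36), source replicate 16 (0.11) or source replicate 17 (0.28). CELA1 lost it without the summed control library of replicates 12 and 13 (adjusted p = 0.078) or source replicate 16 (0.15). Without control replicate 14, the control that was highest for 6 of 7 genes, 7 genes were called higher, and without source replicate 18, the lowest source library for 6 of 7 genes, 6 were. PRSS1, for example, had adjusted p = 0.031 and 0.021 in these fits, and AMY2A 0.0082 and 0.016. Over all features 55 of 8641 and 45 of 8629 were called higher in them.

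Slick and source larvae were also compared directly. Both comparisons above share the same controls, so the direct fit is the measure of how the oils differed. AMY2A was lower in slick than in source larvae by 0.47 ± 0.053 on the log2 scale (0.724-fold, adjusted p = 7.6e-13), and CPB1 by 0.24 ± 0.057 (0.846-fold, adjusted p = 0.00077). In both genes every slick library lay below every source library. These were 2 of 7 genes called lower, where 6.47% of all features were, and both were called in each of the 6 fits without 1 library and the 8 other alternatives. No difference was called for PRSS1 (log2 difference 0.02, 95% interval -0.08 to 0.12), PRSS2 (-0.02, -0.13 to 0.09) or CTRB1 (0.06, -0.04 to 0.16). CPA1 (-0.14, -0.26 to -0.02, adjusted p = 0.13) and CELA1 (-0.14, -0.27 to -0.01, adjusted p = 0.17) were not called either. CPA1 was called without slick replicate 8 (-0.23, adjusted p = 0.0047) and CELA1 without source replicate 18 (-0.25, adjusted p = 0.01).

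The make-up of the enzyme messages shifted in slick larvae, while the libraries overlapped with controls in the sum. Together the 7 genes took 1.76 ± 0.131% of all counts in slick, 1.91 ± 0.140% in source and 1.69 ± 0.0797% in control larvae. AMY2A made up 17.6 ± 0.220% of the 7 genes' normalised counts in slick larvae (17.4% to 17.8%), against 22.8 ± 0.744% in source larvae (22.01% to 23.47%) and 23.1 ± 1.00% in controls (22.1% to 24.1%). CTRB1 took 34.3 ± 0.582% in slick larvae, against 30.9 ± 0.233% in source larvae and 31.3 ± 0.160% in controls. The shares add up to a fixed whole, so a smaller AMY2A share by itself makes the other shares larger. Counts are not per length, so these shares compare libraries and do not rank the genes.

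Within 1 library, the ratio of AMY2A to PRSS1 counts needs no scaling. It was 0.543, 0.543 and 0.568 in the slick libraries at 96 hpf, against 0.784, 0.792 and 0.726 in source and 0.727, 0.774 and 0.843 in control libraries. The slick ratios lay below all others, and the difference gave p = 0.1 against control and against source in an exact two-sided permutation test, the smallest p that 3 against 3 libraries allow. Source against control gave p = 0.9 in the same exact test. Over the 9 such tests at 3 stages the adjusted p (Benjamini-Hochberg) was 0.18 for each raw p of 0.1 and 0.9 for source against control at 96 hpf, from exact permutation tests. The mean ratio was 0.551 ± 0.0145 in slick, 0.767 ± 0.0360 in source and 0.781 ± 0.0586 in controls. At 48 hpf the ratio was 5.13 ± 1.2 in slick, 8.95 ± 2.06 in source and 8.28 ± 0.471 in control animals (exact permutation p = 0.1 for slick against control and against source, 0.8 for source against control). At 24 hpf it was 12.5 ± 3.28 in slick, 8.19 ± 2.52 in source and 28.2 ± 22.2 in control embryos (exact permutation p = 0.2, 0.1 and 0.3 for slick against control, source against control and slick against source), on few PRSS1 counts. This ratio was chosen after the values of both genes were seen. A ratio of CPB1 to PRSS1 counts was 0.135 to 0.144 in slick libraries, against 0.163 to 0.169 in source and 0.161 to 0.164 in control libraries. Against control, CPB1 itself was at -0.03 in slick larvae and PRSS1 at 0.19 on the log2 scale. Against source, CPB1 was at -0.24 and PRSS1 at 0.02. Both ratios against control thus also carry the higher PRSS1 of slick larvae.

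**Figure D3:**
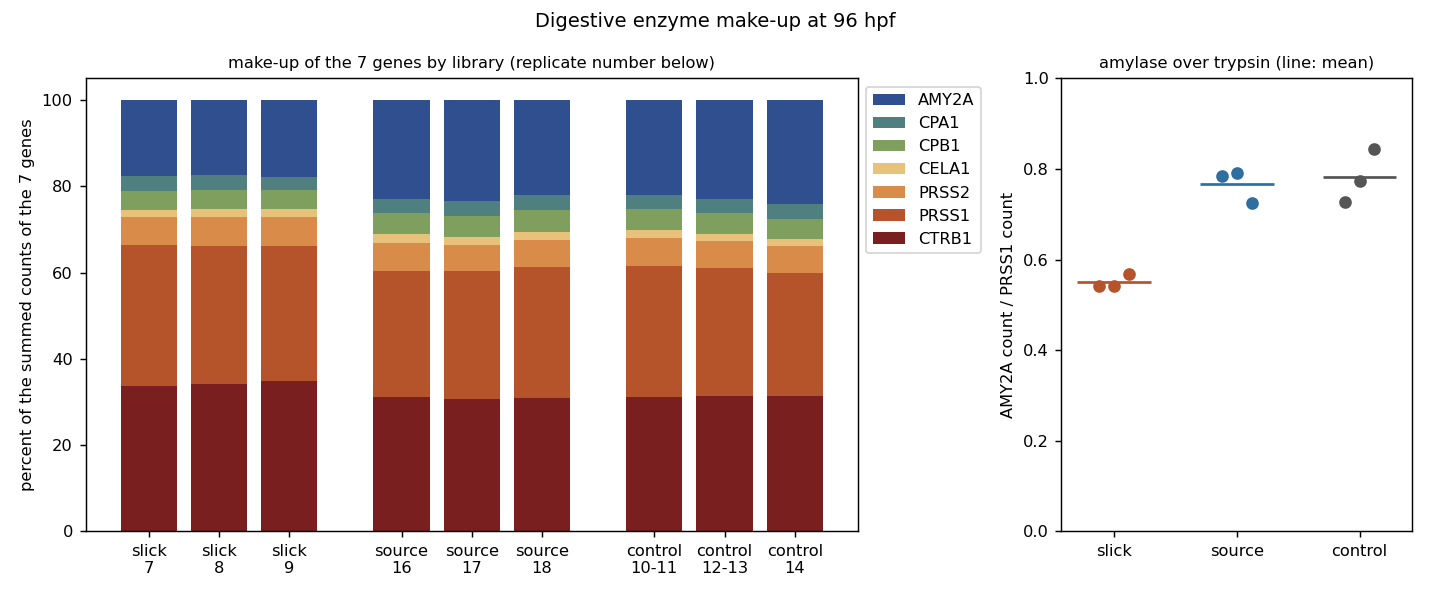
Left, percent of the summed normalised counts of the 7 genes (y) taken by each gene in the 9 libraries at 96 hpf (x, group and replicate). Right, AMY2A count over PRSS1 count per library, with group means as lines. The amylase block is thinner in the 3 slick libraries (17.4% to 17.8%) than in the 6 others (22.01% to 24.1%), and the slick ratios (0.543 to 0.568) lie below the rest.

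The further table lines of these genes, fitted as features of their own, mostly repeated the kept line. The further lines of AMY2A were lower in slick than in control larvae by 0.31 ± 0.054 and 0.33 ± 0.056 on the log2 scale (adjusted p = 1.4e-06 and 8.9e-07), much as the kept line. They are no independent evidence, since lines of 1 identifier may count overlapping reads. The second line of CPB1 was at -0.03 in slick and 0.21 in source larvae (adjusted p = 0.037 for source). The 3 further lines of CPA1 had log2 changes of 0.05 to 0.10 in slick larvae and 0.19 to 0.22 in source larvae, none of them called.

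Other lines differed from the kept line in size. CELA1 line 2 had 53.8, 61.6 and 49.0 normalised counts in slick larvae, 63.4, 57.9 and 48.8 in source larvae and 30.9, 28.4 and 37.0 in controls. It was higher in both oils without overlap, by 0.85 ± 0.18 in slick (adjusted p = 0.00011) and 0.87 ± 0.18 in source (adjusted p = 0.0014), against 0.19 and 0.33 for the kept line. The second trypsin line shared by PRSS1 and PRSS2 had 2707, 2984 and 2399 normalised counts in slick larvae, 2518, 2410 and 2393 in source larvae and 2455, 2288 and 2525 in controls. Its log2 change was 0.19 ± 0.055 in slick (adjusted p = 0.0043) and 0.02 ± 0.055 in source (adjusted p = 0.94), and slick lay above source by 0.17 (adjusted p = 0.025). The kept PRSS2 line was at 0.16 in slick and 0.18 in source larvae, and at -0.02 in slick against source. The ratio of the second shared line to the kept PRSS2 line was 0.977 to 1.07 in slick, 0.861 to 0.944 in source and 0.993 to 1.01 in control libraries.

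**Figure D4:**
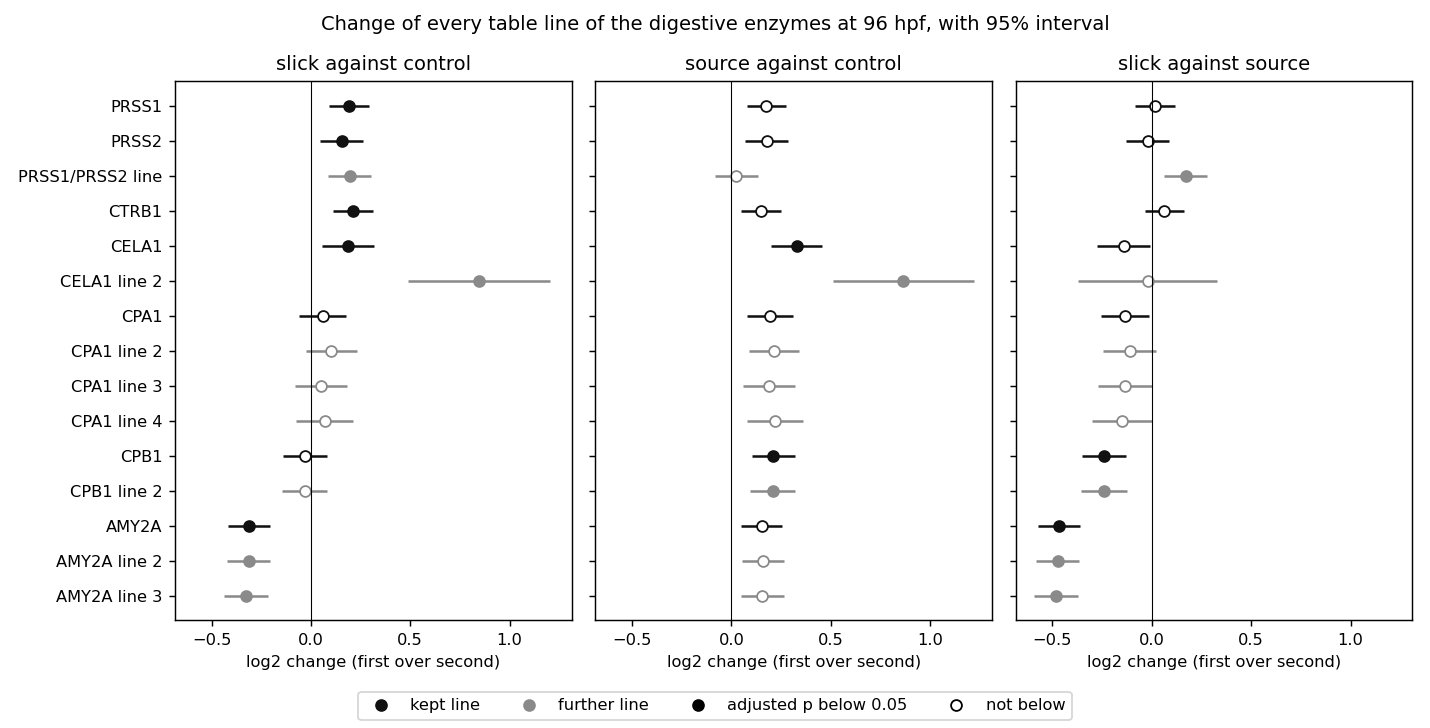
Log2 change at 96 hpf (x, with 95% interval) of every table line of the 7 genes (y) for slick against control, source against control and slick against source, kept lines in black and further lines in grey, filled where the adjusted p was below 0.05. The 3 AMY2A lines sit together at -0.31 to -0.33 in slick against control, whereas CELA1 line 2 (0.85 and 0.87) stands apart from the kept CELA1 line.

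At 24 and 48 hpf no member was called under either oil. At 24 hpf the low-count filter passed 2 of the 7 genes, AMY2A and PRSS1, and 0 were called in slick against control (0.58% of features were), source against control (1.69%) and slick against source (0.219%). At an unadjusted p below 0.05 these counts were 0, 2 and 1 in edgeR, and DESeq2 called 0 in each, although in both comparisons with control it gave none of these genes an adjusted p. AMY2A had 102.5, 110.6 and 131.0 normalised counts in source embryos at 24 hpf, against 147.4, 157.1 and 145.6 in controls. The groups did not overlap, but the log2 change of -0.38 (95% interval -0.63 to -0.14) gave adjusted p = 0.084. Without source replicate 12 it became -0.49 with adjusted p = 0.05, just under the threshold. In slick embryos AMY2A had 156.2, 140.0 and 117.4 (log2 change -0.12, -0.36 to 0.12, adjusted p = 0.9), overlapping the controls. PRSS1 had 14.3, 8.60 and 11.4 normalised counts in slick, 15.1, 16.5 and 11.8 in source and 2.76, 13.2 and 7.60 in control embryos (adjusted p = 0.85 for slick and 0.38 for source). Of the 5 genes under the filter, CPB1 averaged 4.5 ± 1.42 in slick, 5.48 ± 0.669 in source and 2.62 ± 1.24 in control embryos, on 11, 14 and 6 counts in all, and CTRB1 averaged 2.89 ± 1.47 in slick, 3.91 ± 1.34 in source and 2.99 ± 4.05 in control embryos. CPA1 had 2 counts in all in slick, 1 in source and 0 in control embryos.

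At 48 hpf the filter passed 3 genes, CPA1, AMY2A and PRSS1, and 0 were called in slick against control (3.3% of features were), source against control (1.32%) and slick against source (0.744%). Unadjusted p was below 0.05 for 1, 0 and 1 of them in edgeR. DESeq2 called 0, but gave an adjusted p to 4 of the 7 genes in slick against control, to 1 in source against control and to 0 in slick against source. AMY2A had 126.7, 133.7 and 139.2 normalised counts in slick animals, 185.1, 160.8 and 156.4 in source animals and 165.0, 168.4 and 159.4 in controls. The slick libraries lay below all others, with a log2 change of -0.30 (95% interval -0.49 to -0.12, adjusted p = 0.058) against control and -0.33 (-0.54 to -0.12, adjusted p = 0.16) against source. With the 32 deposited samples kept separate, the change against control was called (-0.31, adjusted p = 0.038). That fit counts control pairs that agreed within sampling noise as separate replicates, so its adjusted p overstates the replication. PRSS1 had 33.5, 22.1 and 25.0 in slick animals, against 21.0, 19.2 and 19.4 in controls (log2 change 0.44, -0.03 to 0.92, adjusted p = 0.42). CPA1 averaged 10.3 ± 1.05 in slick, 11.9 ± 1.74 in source and 11.4 ± 2.05 in control animals. The other 4 genes fell under the filter. CPB1 among them had 1.05, 3.31 and 5.95 in slick, 1.14, 2.51 and 2.61 in source and 5.92, 6.59 and 8.13 in control animals, on 9, 5 and 33 counts in all. Its source libraries lay below all controls, and this was not tested. CTRB1 averaged 11.2 ± 3.92 in slick, 6.22 ± 1.63 in source and 8.56 ± 2.55 in controls, and PRSS2 averaged 0.717 ± 0.622 in slick, 1.61 ± 0.581 in source and 1.88 ± 1.10 in controls.

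Whether an oil's effect differed between stages was tested by interaction terms over all 27 libraries. The slick effect at 48 hpf against that at 24 hpf was called for 0 of 7 genes (0.686% of features), and at 96 hpf against 48 hpf for 0 of 7 (11.7%). The source effect was called for 0 of 7 genes in both steps (0.146% and 0.652%). At an unadjusted p below 0.05 in edgeR the counts were 1 and 0 for slick and 2 and 1 for source, and DESeq2 called 0 in each. PRSS2, CTRB1, CPB1, CELA1 and CPA1 fell under the count filter at 24 hpf, and all of these but CPA1 at 48 hpf too. They entered this fit through their 96 hpf counts, so their missing calls cannot show that an effect was alike at both stages. The slick term between 24 and 48 hpf had an SE of 1.21 for PRSS2 and 1.94 for CPA1 on the log2 scale. For CELA1 this step had no counts at 24 hpf to estimate from. The slick change of AMY2A at 96 hpf minus that at 48 hpf was -0.05 on the log2 scale (95% interval -0.28 to 0.19). CPB1 came nearest to a call, with a source change larger by 1.89 (0.74 to 3.04, adjusted p = 0.11) at 96 hpf than at 48 hpf, where source animals had 5 counts in all.

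Other pancreatic genes and relatives of pancreatic enzymes were looked at beside the 7. The counts for these and the following lists at 96 hpf stand against the 10.9% of all features called higher and 10.4% called lower in slick larvae, and the 0.517% called higher in source larvae. Of 36 further symbols of pancreatic enzymes, their relatives and granule proteins, 9 had a table line and 6 were tested at 96 hpf. The list holds CPA6 and CPB2 by enzyme family, and TMPRSS15, which is also listed as an intestine marker. Its counts and medians thus do not stand for acinar cells alone. All 6 were called higher in controls at 96 than at 48 hpf, where 34.9% of all features were. The fit of 48 hpf alone tested only 3 genes of this list. For genes that passed the filter only through their 96 hpf counts, a rise was built into being tested. CTRC, a chymotrypsinogen that regulates trypsinogen activation in humans, averaged 525.4 ± 42.3 normalised counts at 96 hpf against 1.03 ± 0.668 at 48 hpf. CEL, the bile-salt-dependent lipase, averaged 316.6 ± 14.8 against 0.200 ± 0.346. In slick larvae 1 of the 6 was called higher, CEL, with 356.3 ± 67.8 against 316.6 ± 14.8 in controls (log2 change 0.22, adjusted p = 0.033). That call was lost without slick replicate 8 and without either summed control library (adjusted p up to 0.75). In source larvae 1 of the 6 was called higher, CPA6, a carboxypeptidase related to CPA1, with 346.6 ± 54.7 against 269.2 ± 7.91 (log2 change 0.38, adjusted p = 0.0012, but 0.33 without source replicate 17). CTRC had a log2 change of 0.05 in slick and 0.23 in source larvae (adjusted p = 0.058 for source). TMPRSS15, the enteropeptidase that activates trypsinogen, averaged 33.7 ± 0.978 in slick, 25.3 ± 3.06 in source and 30.9 ± 9.36 in control larvae and was not called. The median of the 6 was 0.10 in slick and 0.18 in source larvae.

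Of 15 transcription factors of acinar cells or of pancreas development more widely, 12 had a line and 7 were tested at 96 hpf. In slick larvae 3 of 7 were called higher and 1 lower. NR5A2, a nuclear receptor that drives acinar enzyme genes in mice, averaged 102.5 ± 10.5 against 71.5 ± 8.54 normalised counts in controls (log2 change 0.53, adjusted p = 0.00069). GATA6, a zinc finger factor of pancreas and other gut organs, averaged 356.0 ± 30.3 against 271.8 ± 23.2 (0.41, adjusted p = 1.5e-05). GATA4, its relative, averaged 190.3 ± 21.1 against 161.8 ± 17.3 (0.25, adjusted p = 0.044), a call lost in 4 of the 6 fits without 1 library (slick replicate 8 or 9, control replicate 14, or control replicates 12 and 13; adjusted p up to 0.35). SOX9, a factor of pancreatic progenitors, ducts and cartilage, averaged 113.1 ± 21.1 against 157.6 ± 15.5 (-0.46, adjusted p = 0.00042). In source larvae 0 of 7 were called. At 48 hpf the slick animals had GATA6 at 164.7 ± 28.7 against 250.4 ± 3.42 (-0.59, adjusted p = 3e-06) and GATA4 at 158.8 ± 20.2 against 201.4 ± 16.6 (-0.34, adjusted p = 0.023, lost without slick replicate 6 or the control libraries of replicates 4 and 5 or 6 and 7, up to 0.27). GATA6 was also called lower in source animals at 48 hpf (-0.31, adjusted p = 0.046, lost without any 1 library, up to 0.21). PTF1A, the factor that defines acinar fate, was close to the limit of detection, with 3.75 ± 1.76 in slick, 2.65 ± 2.33 in source and 1.51 ± 0.862 in control larvae. These factors are also expressed outside the pancreas, GATA4 and GATA6 in the heart and gut and SOX9 in cartilage, and whole animals do not tell the sites apart.

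Genes that serve the secretion of the enzymes were counted in 2 lists. Of 12 tested genes for secretagogue receptors and granule release, slick larvae had 2 called higher and 2 lower at 96 hpf. VAMP8, a SNARE protein of zymogen granules, averaged 72.6 ± 10.2 against 47.0 ± 6.76 in controls (log2 change 0.63, adjusted p = 0.0011), and ATP2A2, a calcium pump also abundant in muscle, 1197 ± 66.3 against 1436 ± 47.1 (-0.22, adjusted p = 0.001). SNAP23, a partner of VAMP8, was at 0.45 (adjusted p = 0.038) and SYT1, a synaptic calcium sensor, at -0.36 (adjusted p = 0.049), and both lost the call in fits without slick replicate 8, slick replicate 9 or the control library of replicates 10 and 11 (adjusted p up to 0.33 and 0.32), SNAP23 also without that of 12 and 13. Of 35 tested genes for protein folding and translocation in the endoplasmic reticulum, 1 was called higher, EDEM1, which helps clear misfolded proteins (0.43, adjusted p = 0.042, lost without slick replicate 7 or 9 or either summed control library, up to 0.24), and 1 lower, the chaperone CANX (-0.23, adjusted p = 0.0013). Their median was 0.03, against 0.01 over all features. Source larvae had 0 called of 12 and 0 of 35. Compared directly with source larvae, slick larvae had 0 of the 12 release genes called higher and 2 lower, where 6.47% of all features were lower. These were VAMP2, of the same family as VAMP8 (-0.43, adjusted p = 0.031), and SYT1 (-0.42, adjusted p = 0.049). Each lost its call in 4 of the 6 fits without 1 library. At 24 hpf 1 of 9 tested release genes, the calcium channel ITPR3, was called under each oil. Of all features 0.58% were called in slick and 1.69% in source embryos at this stage. ITPR3 was at 0.65 in slick (adjusted p = 0.016) and 0.56 in source embryos (adjusted p = 0.031). The slick call was lost without slick replicate 1 or 2 or control replicate 1 or 2 (adjusted p up to 0.30). The source call was lost without source replicate 11 or 12 or any 1 control (up to 0.27). Both were also lost with DESeq2 and with all lines of a gene summed.

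Markers of neighbouring tissues were read beside the enzymes in the same libraries. Of 13 tested markers of the endocrine pancreas, slick larvae had 1 called higher, the factor NEUROD1 (log2 change 0.60, adjusted p = 0.00095), and 1 lower, the prohormone convertase PCSK1 (-0.36, adjusted p = 0.0023), both also active in neurons. INS, insulin itself, averaged 34.9 ± 4.92 in slick, 49.3 ± 2.68 in source and 48.2 ± 2.96 normalised counts in control larvae, and the slick libraries lay below all controls without a call (-0.43, adjusted p = 0.085). PAX4 had no count in any library at 96 hpf. The summed level of the 22 endocrine markers with a line was 2109 to 2204 in slick, 2214 to 2313 in source and 2182 to 2345 in controls. Of 6 tested duct markers AQP1 was called higher (0.88, adjusted p = 1.6e-10) and CA4 (-0.74, adjusted p = 0.00024) and SOX9 lower in slick larvae. The 9 duct markers with a line summed to 582.1 to 611.0 in slick, 609.3 to 646.3 in source and 603.6 to 674.7 in control larvae. At 24 hpf 1 of 6 tested duct markers, CA4, was called under each oil, here higher than in controls. Of all features 0.58% were called in slick and 1.69% in source embryos. CA4 was at 0.82 in source embryos (adjusted p = 2e-13), called in every fit run. In slick embryos it was at 0.34 (adjusted p = 0.045), lost in 5 of the 6 fits without 1 library. Slick against source gave -0.47 (adjusted p = 3.7e-05), lost without source replicate 11, with DESeq2 and with summed lines.

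Of 14 tested intestine markers, slick larvae had 3 called higher and 6 lower at 96 hpf. The brush border peptidase ANPEP averaged 353.1 ± 8.35 against 752.4 in controls (log2 change -1.06, adjusted p = 1.5e-29), and the peptide transporter SLC15A1 67.2 ± 10.7 against 141.2 (-1.03, adjusted p = 7.6e-12). MEP1B, a metalloprotease of the brush border, was at -1.06 (adjusted p = 1.4e-08), while LCT, lactase, was at 0.55 (adjusted p = 3.5e-10). The other two called higher were MGAM, a brush border maltase (0.17, adjusted p = 0.021, up to 0.13 without slick replicate 8 or 9 or the control libraries of replicates 10 and 11 or 14), and APOA4, a lipid carrier (0.62, adjusted p = 0.032, up to 0.25 without slick replicate 7 or 9 or either summed control library). In source larvae 0 of 14 were called. Summed over the 17 markers with a line, intestine transcripts came to 2826 to 3035 normalised counts in slick, 3378 to 3573 in source and 3311 to 3597 in control larvae. Of 15 tested liver markers, slick larvae had 11 called higher and 1 lower and source larvae 5 higher. CP, ceruloplasmin, was at 1.17 in slick (adjusted p = 2.3e-20), TF, transferrin, at -1.17 in slick (adjusted p = 3.5e-23) and 0.40 in source (adjusted p = 8.9e-05), RBP4 at 0.52 (adjusted p = 2.6e-14) and F2, prothrombin, at 0.79 in slick (adjusted p = 3.6e-10) and 0.56 in source (adjusted p = 0.00039). The other calls in source larvae were FGG (0.33, adjusted p = 0.00028, 0.063 without source replicate 17) and FGB (0.32, adjusted p = 0.0055, lost without source replicate 17 or the control library of replicates 10 and 11, up to 0.43), chains of fibrinogen, and HPD of tyrosine breakdown (0.56, adjusted p = 0.0087, lost without source replicate 17 or the control library of replicates 12 and 13, up to 0.15). The 18 liver markers with a line summed to 7354 to 8455 in slick, 7460 to 7799 in source and 6441 to 6877 in control larvae. Of 6 tested hatching and yolk markers, 4 were called higher in slick larvae, led by the lysosomal proteases CTSB (0.98, adjusted p = 2.4e-24) and CTSD (0.63, adjusted p = 6.8e-12). CTSZ (0.31, adjusted p = 6.3e-05) and the iron exporter SLC40A1 (0.44, adjusted p = 0.011, up to 0.13 without slick replicate 7 or the control library of replicates 12 and 13) completed them, and the protease CAPN9 was lower (-0.20, adjusted p = 0.039, up to 0.27 without slick replicate 7 or 8, control replicate 14 or the library of replicates 12 and 13). In source larvae 0 of 6 were called. Their sums over 8 genes were 1823 to 1852 in slick, 1536 to 1606 in source and 1416 to 1448 in control larvae. The part of these tissues and of the pace of yolk use in the changes of the digestive enzymes was not tested.

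**Figure D5:**
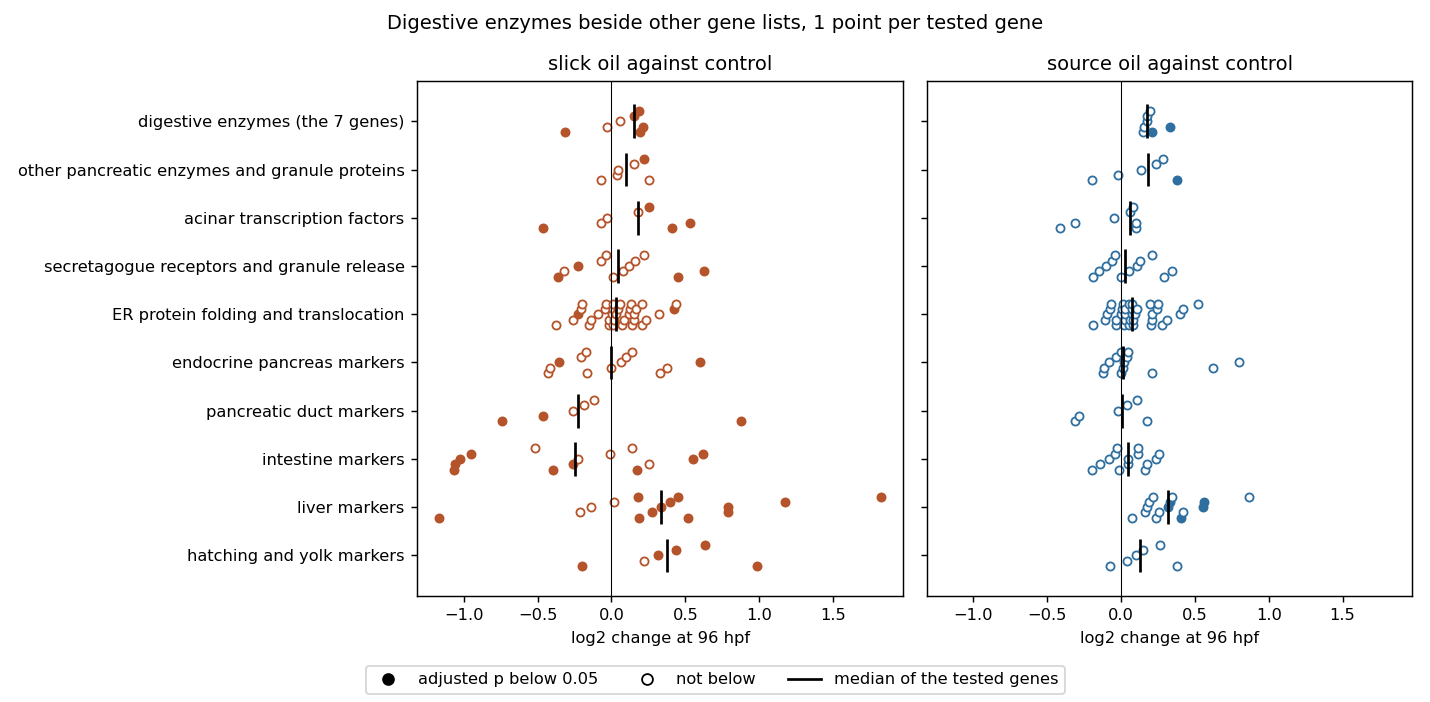
Log2 change at 96 hpf (x) of each tested gene in the digestive enzymes and in 9 other lists (y) for slick against control (left) and source against control (right), filled where the adjusted p was below 0.05, with the list's median as a bar. The 7 digestive enzymes span -0.31 to 0.21 in slick larvae and 0.15 to 0.33 in source larvae, while the intestine and liver markers in slick larvae reach beyond -1 and the liver markers beyond 1.

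The 5 features with the pattern most like the median of the 7 genes were found by the distance between centred log2 values over the 9 group means, among features with a mean of at least 50 normalised counts. They were ZAN (root mean square distance 0.344 on the log2 scale), an identifier without a symbol (0.417), COL10A1 (0.455), FAM13A (0.490) and CTRC (0.502). The 7 genes themselves lay between 0.296 (CELA1) and 1.37 (AMY2A) from their median. ZAN averaged 1.46 normalised counts in controls at 48 hpf and 927.8 at 96 hpf, and FAM13A 6.70 and 1894. COL10A1, a cartilage collagen that shares this late rise, had no count in controls at 48 hpf, and at 96 hpf averaged 451.6 in slick, 843.5 in source and 975.0 in control larvae.

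The authors' deposited table of slick against control at 96 hpf lists log2 changes of -0.29 for AMY2A (adjusted p = 1.5e-05), 0.29 for CTRB1 (8.1e-07), 0.19 for PRSS1 (0.0038), 0.18 for CELA1 (0.083), 0.12 for PRSS2 (0.22), 0.09 for CPA1 (0.47) and -0.03 for CPB1 (0.85). The authors' deposited table for source oil lists 0.18 for PRSS1 (adjusted p = 0.00029), 0.21 for CPB1 (0.00036), 0.17 for CTRB1 (0.0042), 0.20 for CPA1 (0.0054), 0.26 for CELA1 (0.064), 0.13 for PRSS2 (0.11) and 0.15 for AMY2A (0.31). Whether the authors' fits counted the agreeing control pairs as separate replicates was not checked. The adjusted p-values of the 2 analyses are therefore not like for like. The mean of the CTRB1 line in the count table was 1.60 times the deposited mean at 96 hpf for slick and 1.63 times for source, so the CTRB1 values of the authors' deposited table and those above do not rest on the same counts. For CPA1 the kept line had 0.787 and 0.791 of the deposited mean, and for the other 5 genes 0.963 to 1.10. At 24 and 48 hpf the ratio reached 8.12, for CPB1 in slick embryos at 24 hpf.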

How the data were processed

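Per the labels' protocols, RNA of 30 pooled whole embryos or larvae per replicate was made into TruSeq libraries. Per the submitters' processing notes HTSeq, DESeq2 and the human build hg19 were used, with no versions or roles. The sources used here do not state how fish reads were assigned to human genes. The deposited count table holds raw whole-number counts in 42538 lines, keyed to human gene identifiers. Per the file headers, the authors' comparison tables hold a log2 fold change, its standard error and a Wald score, a p-value and adjusted p-value, and a mean normalised signal. Only symbols, these means, log2 changes and adjusted p-values were used from them.

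For each identifier the line of highest total count was kept, and identifiers with identical counts were joined. The 332 lines without an identifier (at most 0.043% of counts) were left out. Samples of a group were compared by chi-square over features with at least 20 counts. The 5 pairs above p = 0.001 were summed (ratio of chi-square to its degrees of freedom 0.968 to 1.03, lowest p 0.021, against 1.18 to 3.03 in 41 other pairs), a threshold set after the files were seen.

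Differences were tested two-sided with the quasi-likelihood F-test of edgeR 4.0.16 (R 4.3.3) after filterByExpr and TMM scaling. Oils were fitted within a stage (6 residual degrees of freedom), development and interactions over 27 libraries (18). DESeq2 1.42.0, other scalings, no filter, summed lines, the 32 samples, 1 fit over all stages and leaving out each library were alternatives. On counts simulated for slick against control at 96 hpf (8416 features), the edgeR step called 22% of genes changed 1.2-fold, 58% at 1.5-fold, 82% at 2-fold and 93.9% at 3-fold. The simulation changed only a small random set of features of any expression level, whereas 1808 of 8511 were called in the real comparison. Its percentages therefore do not give the sensitivity for the 7 genes. The members and gene lists were chosen with earlier results of these data known. The text names all 7 members, up to 4 called genes per other list and oil comparison by lowest p with a mean of at least 10 normalised counts, any gene needed to account for a count of 5 or fewer, and the 5 most similar profiles. Some genes without a call (CTRC, TMPRSS15, PTF1A and INS) were named after their values were seen. In the oil comparisons within a stage the median log2 change of all features stayed within 0.059 of 0 in all settings. Total-count scaling moved it to 0.307 in controls at 96 against 48 hpf and to -0.117 at 48 against 24 hpf, against 0.051 and 0.015 with TMM.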

Additional observations from a re-analysis of the deposited data

Results flagged for a closer look

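Among table lines that the main comparisons leave out, a level above control was called in 4 cases at 96 hpf. The second trypsin line shared by PRSS1 and PRSS2 was higher in slick than in control larvae by 0.19 on the log2 scale (edgeR adjusted p = 0.0043), although 1 slick library lay below 2 controls, and was not called in source larvae. The second line of CPB1 was higher in source larvae by 0.21 (adjusted p = 0.037). CELA1 line 2 was higher by 0.85 in slick larvae (adjusted p = 0.00011) and by 0.87 in source larvae (adjusted p = 0.0014), with 45 to 54 counts per slick library, 46 to 53 per source library and 33 to 54 per control library, of which 2 are summed pairs. No group had 4 or more libraries, so single libraries were not tested as outliers.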

How the results depend on the processing

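The number of members called at 96 hpf depended on the processing, and no called change reversed its direction in any fit run. In slick against control 5 members were called, and 3 with all lines of a gene summed, 3 with all stages in one fit and 3 with DESeq2 (AMY2A, CTRB1 and PRSS1 in each), and 2 to 5 when 1 library was left out. Over all features 1808 of 8511 were called, and 1469 of 8758 with summed lines. With all stages in one fit it was 1814 of 8898, with DESeq2 1041 of 8385, and without 1 library 1426 to 1707. In source against control 2 were called, and 6 with total-count scaling, 0 with summed lines, 7 with the 32 samples kept separate, 1 with DESeq2, and 0 to 7 when 1 library was left out. Over all features 94 of 8511 were called, 100 of 8511 with total-count scaling and 10 of 8758 with summed lines. With the 32 samples it was 133 of 8581, with DESeq2 47 of 3938, and without 1 library 46 to 105. Few features of any kind were thus called with summed lines. Leaving out 1 library gave 2 to 3 against 2 in slick against source at 96 hpf, 2 to 4 against 4 in controls at 48 against 24 hpf, and 0 to 1 against 0 in source against control at 24 hpf. In slick against control at 48 hpf 1 was called with the 32 samples kept separate, against 0. The setting of 32 samples counts control pairs that agreed within sampling noise as separate replicates, so its calls overstate the replication. The counts at 96 against 48 hpf stayed at 7 throughout. For single members 605 of the leave-one-out values kept their side of the threshold, 19 lost a call and 12 gained one, and in the other settings 555 kept it, 12 lost a call and 16 gained one. The cause of these changes was not tested. A replicate block was fitted for slick against control at 24 hpf, where 0 members were called with or without it (AMY2A -0.12, adjusted p = 0.87 with the block). Same-numbered samples did not visibly deviate together (correlations 0.049, 0.00065 and 0.026). No pairing by number was thus seen, but these 3 values cannot exclude one. At other stages no paired analysis was possible because the groups share no replicate numbers or a summed library carries more than 1. Low counts of the members limit the 24 and 48 hpf stages, where 5 and 4 of the 7 genes fell under the count filter.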

Other observations

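In control animals all 14 tested intestine markers were called higher at 96 than at 48 hpf, with a median log2 change of 5.28. Of all features 34.9% were called higher. The fit of 48 hpf alone tested only 7 intestine markers. For markers that passed the filter only through their 96 hpf counts, a rise was built into being tested. Of the 15 listed transcription factors of acinar cells or pancreas development, 8 were tested over this step. Among them 2 were called higher and 5 lower, where 2439 of 8898 features were called lower. NR5A2 averaged 71.5 ± 8.54 normalised counts at 96 hpf against 24.1 ± 3.75 at 48 hpf (log2 change 1.59, edgeR adjusted p = 1.4e-16), and RBPJL, the partner of PTF1A in acinar cells, 19.2 ± 2.68 against 11.2 ± 2.23 (0.74, adjusted p = 0.01). Those called lower were ONECUT1 (-1.16), FOXA2 (-0.73), GATA4 (-0.29), SOX9 (-0.23) and HES1 (-0.90). The changes of GATA4 and SOX9 are smaller in size than the median of 0.307 that total-count scaling gave all features in this step.

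At 48 hpf 7 of 14 tested liver markers were called lower in slick than in control animals, where 3.3% of all features were called in either direction. RBP4 had a log2 change of -0.50 at 48 hpf and 0.52 at 96 hpf, F2 of -0.61 and 0.79, and TF of -0.46 and -1.17.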
